A study of Arabidopsis thaliana with 6 samples.

Results

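COR15A (AT2G42540), COR15B (AT2G42530) and COR47 (AT1G20440) are cold-regulated genes of Arabidopsis thaliana. They were chosen by name, with earlier results of these data known. Each was read by 1 probe set that the platform annotation pairs with that gene alone. They were 3 of 13286 genes with such a probe set among the 22746 probe sets left after controls were set aside, and none of the probe sets shared by several genes listed any of the 3. Transcript levels were measured on 1-colour Affymetrix arrays in whole plants of the ceh1 mutant and of its parent line, which the labels also call wild type, with 3 biological replicates of each genotype and 1 array per replicate. Published work on the mutant describes ceh1 as a mutation in HDS, which encodes an enzyme of isoprenoid precursor synthesis in plastids, found in a parent line that carries a luciferase reporter for the HPL promoter. All plants were 2 weeks old and grew at 23 °C under 8 h of light and 16 h of darkness. The only cold in the labels' protocols was 2 days at 4 °C for the plated seeds of both genotypes. About 20 plants were collected, and the labels do not say whether that number is per array. The hour of harvest is not given in the sources used here.

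In the cold, CBF transcription factors of Arabidopsis accumulate and bind a short promoter element shared by many cold-regulated genes, whose products help cells withstand freezing and loss of water. COR15A and COR15B encode related late embryogenesis abundant (LEA) proteins of the chloroplast stroma that protect chloroplast membranes during freezing, and the genes lie next to each other in the gene table. COR47 encodes a dehydrin, a hydrophilic protein of the cytosol that is made in cold, drought and abscisic acid treatment. Cold-regulated genes of this kind also follow the time of day at warm temperatures, since the circadian clock gates the CBF factors.

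For none of the 3 genes was the difference between ceh1 and the parent larger than the spread between replicates. COR15A and COR15B instead varied among arrays of the same genotype more than nearly all other probe sets, and all 3 genes had their highest value on parent replicate 3. How many of all tested probe sets were highest on that array was not counted. Values below are log2(intensity + 2) after quantile normalization, called log2 signal, and raw intensities are the deposited values on a linear scale.

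For COR15A the log2 signal was 7.36, 8.16 and 11.49 on parent arrays 1, 2 and 3 and 9.92, 8.94 and 11.02 on ceh1 arrays 1, 2 and 3. Parent replicate 3 lay above every ceh1 array and the other parent arrays lay below every ceh1 array, so the genotypes overlapped. The mean was 9.00 ± 2.19 (SD, n = 3) for the parent and 9.96 ± 1.04 (SD, n = 3) for ceh1. The log2 fold change of 0.96 ± 1.04 (SE) missed the threshold (limma, adjusted p = 0.659 over all 15922 probe sets tested), with a 95% confidence interval from −1.47 to 3.38. On a linear scale that is a ratio of ceh1 to parent of 1.94, with limits of 0.361 and 10.4.

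For COR15B the log2 signal was 6.16, 6.22 and 11.70 on parent arrays 1, 2 and 3 and 7.89, 7.93 and 10.59 on ceh1 arrays 1, 2 and 3. Replicates 1 and 2 lay close together within each genotype, and replicate 3 stood well above them in both. The mean was 8.03 ± 3.18 (SD, n = 3) for the parent and 8.81 ± 1.55 (SD, n = 3) for ceh1. The log2 fold change was 0.78 ± 1.51 (SE) and missed the threshold (limma, adjusted p = 0.821), with an interval from −2.74 to 4.29. The linear ratio of ceh1 to parent was 1.71, with limits of 0.149 and 19.6, so the arrays bound a change of this gene only loosely in either direction.

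For COR47 the log2 signal was 10.02, 10.46 and 11.44 on parent arrays 1, 2 and 3 and 10.26, 10.65 and 10.74 on ceh1 arrays 1, 2 and 3. The ceh1 arrays lay inside the range of the parent arrays. The mean was 10.64 ± 0.72 (SD, n = 3) for the parent and 10.55 ± 0.25 (SD, n = 3) for ceh1, and the log2 fold change of −0.09 ± 0.35 (SE) missed the threshold (limma, adjusted p = 0.917). Its interval, from −0.90 to 0.73, was the narrowest of the 3 and corresponds to ratios of ceh1 to parent between 0.535 and 1.66.

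None of the 3 genes passed (limma), where 3.77% of all tested probe sets did, and 0 of the 3 had an unadjusted p under 0.05, against 20.9% of all tested probe sets. In 0 of the 3 did the genotypes separate without overlap, against 27.5% of all tested probe sets. The difference between genotype means took up 10.4% of the sum of squares over the 6 arrays for COR15A, 3.47% for COR15B and 0.962% for COR47, while the median over all tested probe sets was 26.7%.

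**Figure D1:**
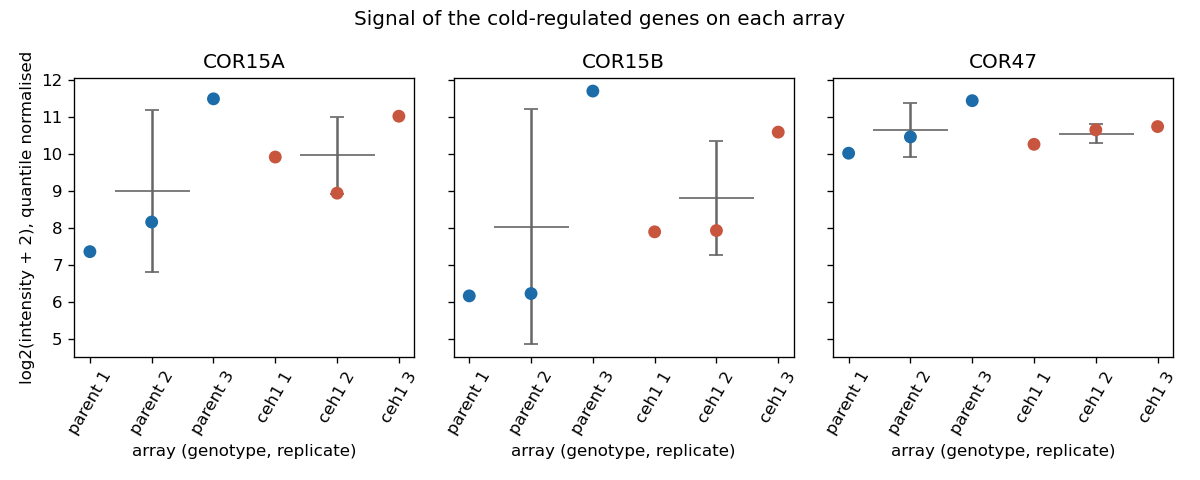
Each point is the log2(intensity + 2) signal on 1 array, quantile normalised, for COR15A, COR15B and COR47, with parent arrays in blue and ceh1 arrays in red; grey lines give the genotype mean and bars the SD over 3 arrays. Parent replicate 3 is the highest point in every panel, at 11.49, 11.70 and 11.44.

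The order of the arrays was nearly shared by the 3 genes. Parent replicate 3 was highest and ceh1 replicate 3 second in all 3, and parent replicate 1 was lowest in all 3. For COR15B the next array lay 2.67 log2 units below ceh1 replicate 3, whereas for COR47 the next array, ceh1 replicate 2, lay 0.09 below it. Parent replicates 1 and 2 differed by 0.80 for COR15A and by 0.06 for COR15B, less than the SD within either genotype. For COR47 they differed by 0.44, with ceh1 replicate 1 between them.

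The raw intensities showed the same order at the top before any normalization between arrays. At the bottom the order differed for COR15B and COR47. The lowest raw value was on parent replicate 2 for COR15B, at 65.0, and on ceh1 replicate 1 for COR47, at 1038. COR15B had raw intensities of 79.3, 65.0 and 2715 on parent arrays 1, 2 and 3 and 210.0, 296.9 and 1742 on ceh1 arrays 1, 2 and 3. Parent replicate 3 was thus 34.3 and 41.8 times as bright as parent replicates 1 and 2, and ceh1 replicate 3 was 8.29 and 5.87 times as bright as ceh1 replicates 1 and 2. In rank this took COR15B from brighter than 55.9% of probe sets on parent replicate 1 to brighter than 99.3% on parent replicate 3.

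COR15A had raw intensities of 188.8, 256.8 and 2340 on the parent arrays and 834.6, 596.3 and 2269 on the ceh1 arrays. Parent replicate 3 was 12.4 and 9.11 times as bright as the other parent arrays, and ceh1 replicate 3 was 2.72 and 3.81 times as bright as the other ceh1 arrays. COR47, the dehydrin gene, had raw intensities of 1248, 1346 and 2258 on the parent arrays and 1038, 1913 and 1920 on the ceh1 arrays. It lay between the 96.0th and the 99.0th percentile of probe sets on the 6 arrays, so its probe set was among the bright ones in warm-grown plants of both genotypes.

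Among the 15922 tested probe sets, the SD over the parent arrays ranked 8th largest for COR15B and 40th for COR15A, where the median SD was 0.238. Over the ceh1 arrays COR15B ranked 104th and COR15A 488th, with a median SD of 0.286. COR47 ranked 1286th in the parent and 8969th in ceh1. These ranks describe the arrays at hand, and an SD over 3 arrays is itself imprecise. The 3 genes were also chosen with earlier results of these data known, so they are not an independent pick.

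**Figure D2:**
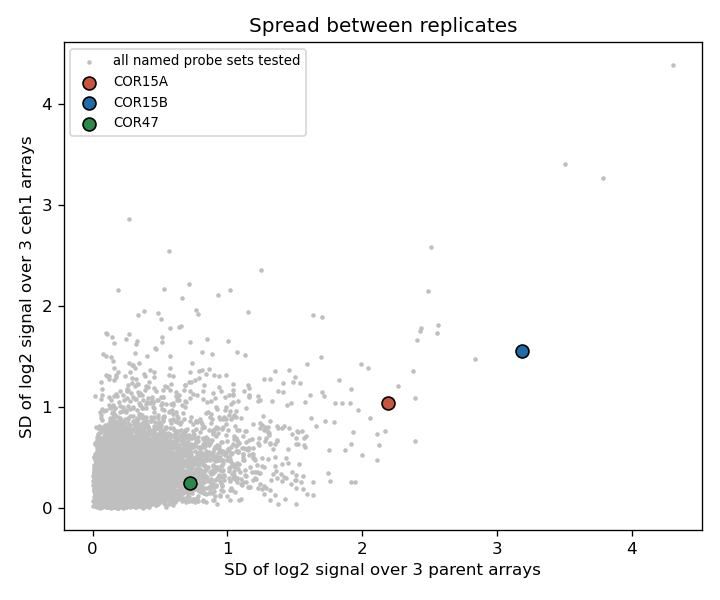
Each grey point is a tested probe set with a single gene name, placed by the SD of its log2 signal over 3 parent arrays (x axis) and over 3 ceh1 arrays (y axis); large points mark the 3 cold-regulated genes. COR15B, at 3.18 and 1.55, and COR15A, at 2.19 and 1.04, lie far outside the main cloud, and COR47, at 0.725 and 0.253, lies near it.

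Parent replicate 3 stood apart from the other parent arrays beyond these genes. On it 50 tested probe sets, or 0.314%, were at least 3 log2 units above both other parent arrays, COR15A and COR15B among them, and 28 were as far below. On each of the other 5 arrays at most 7 probe sets stood so far above their group and at most 8 so far below. Parent replicate 3 also had the lowest trimmed mean intensity, 109.8 against 130.0 to 175.7 on the other arrays, and the lowest signal of the control probe set for large-subunit ribosomal RNA, 293.7 against 416.9 to 4598. PYK10, the 1 root marker bright enough to test, had its lowest log2 signal there as well, 8.62 against 9.49 and 9.83 on the other parent arrays and 10.46 to 10.62 in ceh1. Another root marker, EXPA7, was too dim to test, and its log2 signal went the other way. It was highest on parent replicate 3, at 3.95, against 3.19 and 2.08 on the other parent arrays and 2.12 to 2.64 in ceh1. The actin control signal of parent replicate 3 at the 3' end over that at the 5' end, 2.52, lay within the range of the other arrays. The GAPDH control signals were lowest on that array, at 813.5 for the 3' end and 1085 for the 5' end. On the other arrays they were 1699 to 2502 and 1581 to 3046, and their ratio was not computed. The part of these measures in the values of the cold-regulated genes was not tested, and in whole plants more RNA per cell and more cells of a type cannot be told apart.

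Leaving out parent replicate 3 changed the size of the genotype difference most. Without it the log2 fold change was 2.19 for COR15A and 2.62 for COR15B, and neither passed (limma, adjusted p = 0.0884 and 0.114). Without parent replicate 1 the values were 0.13 for COR15A and −0.16 for COR15B. Without parent replicate 2 they were 0.53 and −0.12, and without ceh1 replicate 3 they were 0.42 and −0.13. Leaving out ceh1 replicate 2 gave 1.48 and 1.21, and leaving out ceh1 replicate 1 gave 0.98 and 1.24. For COR47 the value lay between −0.40 and 0.31 whichever array was left out, and was above 0 without parent replicate 3 and without ceh1 replicate 1.

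**Figure D3:**
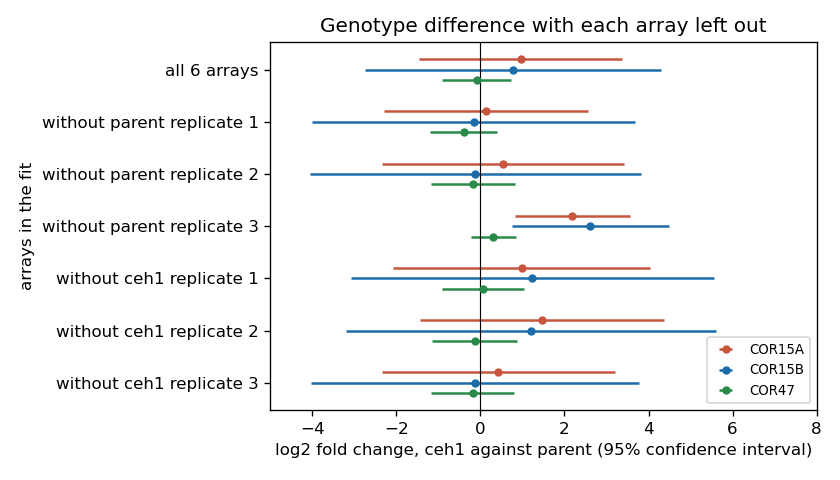
Points give the log2 fold change of ceh1 against parent for COR15A (red), COR15B (blue) and COR47 (green), and lines its 95% confidence interval from limma, with all 6 arrays and with each array left out in turn. The values without parent replicate 3, at 2.19, 2.62 and 0.31, are the highest for each gene among these fits.

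COR15A and COR15B, neighbours of the same LEA family, were compared through the difference of their log2 signals within each array. COR15A minus COR15B was 1.20, 1.94 and −0.21 on parent arrays 1, 2 and 3 and 2.02, 1.01 and 0.43 on ceh1 arrays 1, 2 and 3. The difference was smallest on the arrays where both genes were high, so COR15B spanned a wider range than COR15A. Between the genotypes this difference shifted by 0.18 (exact two-sided permutation test, p = 0.9). The shift was 1.04 for COR15A minus COR47 and 0.86 for COR15B minus COR47 (exact two-sided permutation test, p = 0.3 and 0.6). With an array left out the shift against COR47 ran from 0.53, without parent replicate 1, to 1.88, without parent replicate 3, for COR15A, and from 0.05, without parent replicate 2, to 2.30, without parent replicate 3, for COR15B. Adjusted over these 3 pairs each p was 0.9, and 0.1 is the smallest p that 3 against 3 arrays allow.

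The genes beside them in the gene table varied much less where they were measured. AT2G42520, on the other side of COR15B, was also highest on parent replicate 3, but its log2 signals lay between 7.05 and 7.69 and its log2 fold change was 0.00 (limma, adjusted p = 0.995). AT2G42560, listed with the same LEA family, was too dim to test, and the genes AT2G42510 and AT2G42550 were not analysed here. Next to COR47, AT1G20430 had a log2 fold change of 0.08 and AT1G20410 of −0.33, and neither passed (limma, adjusted p = 0.867 and 0.454). Within ceh1, AT1G20430 gave 6.90, 7.49 and 7.15 on arrays 1, 2 and 3, a wider range than the 0.477 of COR47. ERD10, the dehydrin gene that follows COR47, had no probe set with that name alone in the annotation used and was not analysed here, nor was AT1G20460 beyond it.

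The named genes whose profiles were most like each member were found by the root mean square difference over the 6 arrays, after each profile was centred on its own mean. For COR15A the nearest of 8601 other genes were AT4G36010, at 0.322 log2 units, AT4G29780, at 0.454, and AT1G72920, at 0.511. AT4G36010 gave log2 signals of 5.40, 5.61 and 9.26 on the parent arrays and 6.96, 6.32 and 8.34 on the ceh1 arrays, so it too was highest on parent replicate 3 and then on ceh1 replicate 3. For COR15B the nearest were AT2G21130, at 0.690, AT4G36010, at 0.720, and AT4G16146, at 0.748. For COR47 they were AT1G18485, AT1G11170 and AT1G34160, at 0.0999, 0.102 and 0.117. COR15B itself ranked 19th in likeness to COR15A, at 0.788, while COR47 ranked 328th, at 1.16. This measure favours genes with swings of equal size, and all profiles share the same 6 arrays. None of these nearest genes passed the test between genotypes. They were picked for likeness to members that did not pass. That result, and the order of the arrays for AT4G36010, therefore largely follow from the choice.

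Few other genes of the cold response could be read. Of 87 genes in the lists for CBF factors and their regulators, other cold-induced genes, dehydrins and the LEA family of COR15A and COR15B, leaving out the 3 members, 23 had a single-gene probe set and 8 were bright enough to test. None of the 8 passed in either direction (limma), where 3.77% of all tested probe sets did. Among the 8 genes only LTI30 had an unadjusted p under 0.05 (limma), no more than the 20.9% of all tested probe sets would give. The median log2 fold change of the 8 was 1.1, beside −0.03 over all tested probe sets, but no gene lay near 1.1. LTI30, ZAT10, COR27 and AT4G33980 lay between 1.88 and 2.02, and the others between −0.70 and 0.32. The intervals of COR27 and AT4G33980 were wide, from −4.08 to 8.12 and from −3.06 to 6.87. CBF1, CBF2 and CBF3 had no single-gene probe set in the annotation used and were not analysed here. Of the list for CBF factors and regulators only EIN3, an ethylene transcription factor known to repress CBF genes, and SIZ1, a SUMO ligase that acts on the CBF activator ICE1, were tested. Their log2 fold changes were 0.32 and 0.20 and missed the threshold (limma, adjusted p = 0.472 and 0.585).

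Among the dehydrins, LTI30, whose transcript is induced by low temperature, gave log2 signals of 5.13, 4.23 and 6.58 on the parent arrays and 6.75, 7.79 and 7.03 on the ceh1 arrays. All ceh1 arrays lay above all parent arrays, with parent replicate 3 the closest to them. The log2 fold change of 1.88 ± 0.57 (SE) missed the threshold (limma, adjusted p = 0.124). Without parent replicate 3 it was 2.53 and passed (limma, adjusted p = 0.0209). With any other array left out it lay between 1.34 and 2.11 and did not pass (limma, adjusted p from 0.147 to 0.322). HIRD11, a small dehydrin, had a log2 fold change of 0.07 and missed the threshold (limma, adjusted p = 0.902), and its log2 signal was highest on parent replicate 3, at 12.35. The other listed dehydrins with a probe set, AT2G21490, AT4G38410 and AT4G39130, were too dim to test.

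ZAT10, a zinc finger repressor induced by cold and many other stresses, gave log2 signals of 6.23, 5.97 and 9.47 on the parent arrays and 8.96, 9.15 and 9.47 on the ceh1 arrays. Parent replicate 3 stood with the ceh1 arrays, away from the other parent arrays. The log2 fold change of 1.97 ± 0.84 (SE) missed the threshold (limma, adjusted p = 0.240), and without parent replicate 3 it was 3.09 and passed (limma, adjusted p = 0.00163). With any other array left out it lay between 1.34 and 2.1 and did not pass (limma, adjusted p from 0.303 to 0.532). In the LEA family of COR15A and COR15B, 12 of 13 other named genes were too dim to test, with mean log2 signals between 1.60 and 2.67. The remaining one, AT3G02480, gave log2 signals of 4.60, 7.42 and 3.56 on the parent arrays and 5.04, 4.45 and 3.99 on the ceh1 arrays. It was highest on parent replicate 2 and lowest on parent replicate 3, unlike COR15A and COR15B, and its log2 fold change of −0.70 missed the threshold (limma, adjusted p = 0.713).

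**Figure D4:**
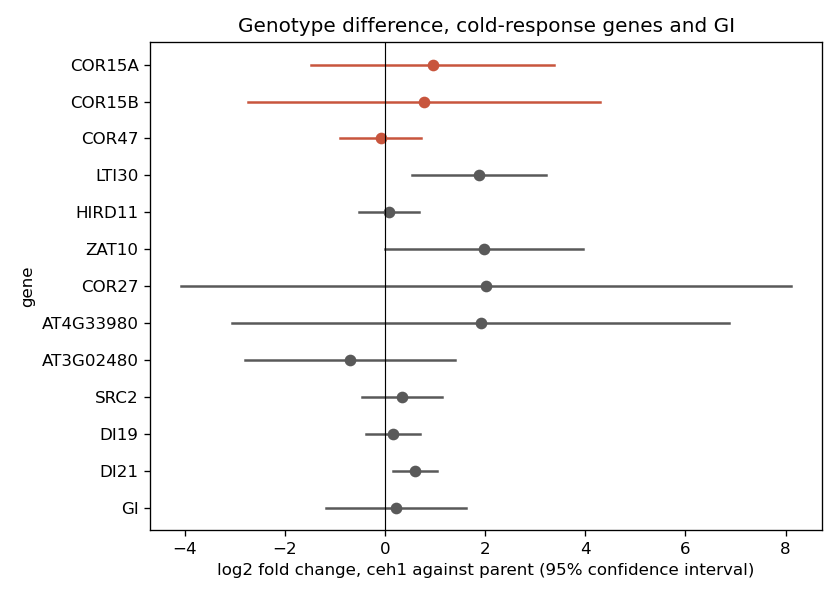
Points give the log2 fold change of ceh1 against parent and lines its 95% confidence interval from limma, with the 3 cold-regulated genes in red and the other genes in grey. The points for LTI30, ZAT10, COR27 and AT4G33980 lie between 1.88 and 2.02, and none of the genes drawn passed the test after adjustment over all probe sets.

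COR27, a cold-regulated gene that is also tied to the clock and peaks late in the day, split the arrays in another way. Its log2 signal was 3.07, 1.70 and 9.75 on the parent arrays and 1.80, 9.10 and 9.69 on the ceh1 arrays. AT4G33980, from the same list, gave log2 signals of 3.16, 2.61 and 9.42 on the parent arrays and 3.19, 8.93 and 8.78 on the ceh1 arrays. Both genes were high on parent replicate 3 and on ceh1 replicates 2 and 3 and dim on the other arrays. On ceh1 replicate 2, by contrast, COR15A had its lowest ceh1 value and COR15B was close to its lowest. The log2 fold changes of 2.02 ± 2.61 (SE) for COR27 and 1.91 ± 2.12 (SE) for AT4G33980 missed the threshold (limma, adjusted p = 0.716 and 0.667).

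GI, an evening gene of the circadian clock and the 1 gene of the clock lists that could be tested, gave log2 signals of 7.52, 7.49 and 9.56 on the parent arrays and 7.66, 8.98 and 8.60 on the ceh1 arrays. It was highest on parent replicate 3, as were the 3 cold-regulated genes, but on ceh1 replicate 2 it was higher than on ceh1 replicate 3. Its log2 fold change of 0.22 missed the threshold (limma, adjusted p = 0.873). With the GI signal as a covariate the SE of the log2 fold change went from 1.04 to 0.77 for COR15A, from 1.51 to 0.89 for COR15B and from 0.35 to 0.18 for COR47. The log2 fold changes were then 0.67, 0.30 and −0.20, and none passed (limma, adjusted p = 0.653, 0.879 and 0.544). The SE also fell with a replicate block in place of GI, to 0.50 for COR15A, 0.54 for COR15B and 0.22 for COR47. The part of the hour of harvest in these values was not tested.

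**Figure D5:**
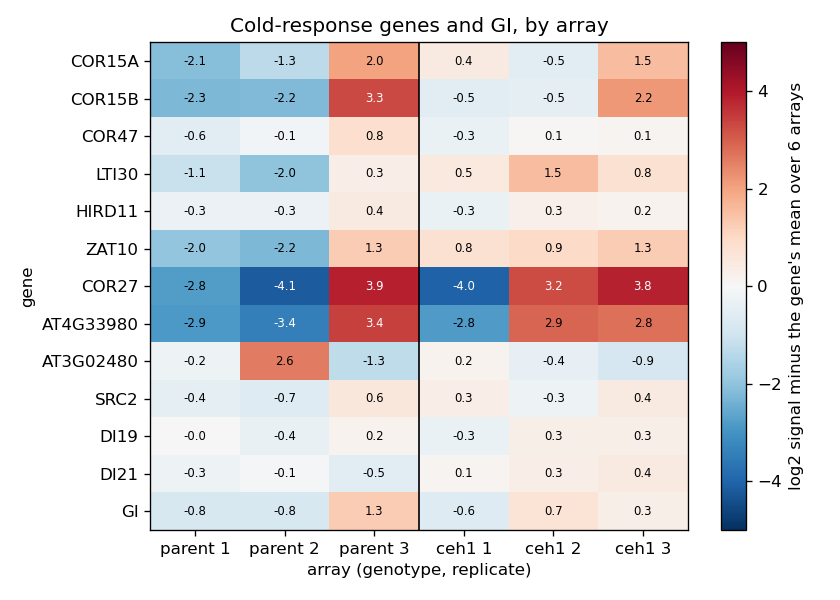
Each cell gives a gene's log2 signal on 1 array minus its mean over the 6 arrays, with higher values in red and lower values in blue; the vertical line separates parent from ceh1 arrays. COR15A, COR15B, COR47 and GI are highest on parent replicate 3, while COR27 and AT4G33980 are high on parent replicate 3 and on ceh1 replicates 2 and 3.

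Other lists gave little more. Of 32 genes for abscisic acid and dehydration responses only HIS1-3, a drought-induced linker histone gene, was tested, with a log2 fold change of 0.24 (limma, adjusted p = 0.778). Of 11 genes other than the members that the gene table names for cold, drought or late embryogenesis, 7 were tested. None of the 7 passed (limma), where 3.77% of all tested probe sets did. Their median log2 fold change was 0.39, beside −0.03 over all tested probe sets. LTI30 and COR27 are already counted among the 8 above. LTI30 and DI21 were the 2 of these 7 with an unadjusted p under 0.05, a share near the 20.9% of all tested probe sets. SRC2, named for a soybean gene regulated by cold, had a log2 fold change of 0.34 and was highest on parent replicate 3, at 11.74. DI21, named drought-induced, gave log2 signals of 7.10, 7.29 and 6.84 on the parent arrays and 7.49, 7.70 and 7.82 on the ceh1 arrays. Its genotypes did not overlap, it was lowest on parent replicate 3, and its log2 fold change of 0.59 ± 0.19 (SE) missed the threshold (limma, adjusted p = 0.133). RCA, the 1 leaf marker tested and a plastid enzyme that activates Rubisco, had log2 signals between 12.49 and 12.96 on all arrays. Seed markers, which would show LEA transcripts of seed origin, had no single-gene probe set and were not analysed here.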

How the data were processed

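The authors deposited linear intensities per probe set, made with MAS5 per the submitters' processing notes; its settings were not stated there. Their trimmed means (2% off each end) differed by up to 1.60-fold between arrays. Precision is limited by the number of arrays, and read depth has no meaning here. Of 22810 probe sets, 64 controls were set aside, and 13513 had 1 gene in the platform annotation, 503 several and 8730 none. Of the single-gene ones 13436 matched the TAIR10.1 gene table, used for names and gene order. No sequences are shown, because none were held in the sources used here.

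Intensities were transformed as log2(intensity + 2), which understates changes of dim probe sets, and quantile normalised. Probe sets with a mean under the 30th percentile (log2 3.80) were left out, keeping 15922. The genotype contrast was fitted in R 4.3.3 with limma 3.58.1, using lmFit and trended eBayes; p-values were two-sided, adjusted by Benjamini-Hochberg over all probe sets kept and called under 0.05. The fit was also run on simulated data, with noise drawn independently for each array. Those data held no outlying array like parent replicate 3, so they cannot show how the fit handles one. For genes with several probe sets the brightest was used. Pairs of members were compared by exact permutation over arrays.

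Members, lists, rules and quantile normalization were chosen with earlier results of these data known. Named were the members, all tested genes of the 4 cold and LEA lists, the leading genes of other lists, 2 neighbours on each side and the 3 nearest profiles. The list taken from names in the gene table was added once the annotation was seen, and SRC2 and DI21 were named after their values were seen. Replicates with the same number were not treated as pairs in the main fit. Their deviations from the group means correlated at 0.273, 0.0568 and 0.473 for numbers 1, 2 and 3. Arrays with unlike numbers gave values from −0.403 to 0.337, so the value for number 3 was the highest of all. Whether replicates of the same number shared conditions was not tested. Alternatives comprised pseudocounts of 1 and 8, other filters and normalizations, other variance models, array weights, a replicate block, GI as a covariate and each array left out.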

Additional observations from a re-analysis of the deposited data

How the results depend on the processing

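COR15A, COR15B and COR47 did not pass under any of 17 alternatives each (limma), with adjusted p between 0.0884 and 0.970 for COR15A, 0.114 and 0.985 for COR15B and 0.456 and 0.998 for COR47. The log2 fold change of COR47 turned positive without normalization between arrays, at 0.0026, and with array weights, at 0.25, where COR15A and COR15B were 2.27 and 2.45. With an array left out it ran from −0.40 to 0.31 for COR47, from −0.16 to 2.62 for COR15B and from 0.13 to 2.19 for COR15A. The shift of COR15A minus COR15B between genotypes ran from −0.43 to 0.65 with an array left out. The replicate block left the log2 fold changes at 0.96, 0.78 and −0.09 and changed no call of the 3 genes (limma, adjusted p = 0.298, 0.428 and 0.849). Over all probe sets 600 were called, 1815 with array weights, 1160 with the replicate block, 384 after a filter at the 50th percentile, 933 with the GI covariate and 152 to 676 with an array left out. Of the 8 other cold and LEA genes tested, 0 were called, 2 without normalization, 2 with array weights, 1 with the GI covariate and 0 to 2 with an array left out; the cause was not tested. LTI30 was among them each time (limma, adjusted p = 0.00454, 0.0248, 0.0231 and, without parent replicate 3, 0.0209). Each setting that called LTI30 also called more probe sets in all than the 600 of the main fit. Without normalization 718 probe sets were called, 657 of them higher in ceh1 and 61 lower. In the main fit 417 were higher and 183 lower. Without parent replicate 3 the number called was 676.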
